A study of Drosophila melanogaster with 15 samples.

Results

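SrpRalpha, TRAM, Sec23 and CHOp24 encode parts of the early secretory pathway and were followed on 15 arrays of whole Drosophila melanogaster embryos. They are 4 of the 134 genes that could be named, and the value table holds 18952 probe sets in all. The members were taken by gene symbol or public identifier from the authors' table of selected genes, where SrpRalpha (CG2522) is listed under its older symbol Gtp-bp, TRAM under CG11642, Sec23 under CG1250 and CHOp24 under CG3564. Each has 1 row in that table, joined to 1 probe set, and whether other probe sets of the array measure these genes is not known here. Those genes had been picked by the study from the 15 arrays described here, as lower in svb than in wild-type (wt) embryos and lower still, by more than 2-fold, in pri embryos. A direction of any member in any of the 3 comparisons is therefore not independent evidence.

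Embryos were wt, svb -/- (allele svbR9 in the study's methods) or pri -/- (allele pri1), with 5 independent samples of 200 embryos for each genotype and 1 array for each sample. All were laid over 2 h at 25 °C and kept at 18 °C to the stage of 13 to 15 h. The study kept its svb and pri stocks over fluorescent balancers and selected the mutant embryos by hand with them. No such sorting is described there for wt. The labels give no further genotype for wt and no sex for any sample, so that the share of each sex may differ between genotypes. Svb is the transcription factor that makes epidermal cells form trichomes, the hairs of the larval cuticle, and pri encodes small peptides that turn Svb from a repressor into an activator.

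Secreted and membrane proteins enter the endoplasmic reticulum (ER) while they are being made. The signal recognition particle brings the ribosome to its receptor, whose alpha subunit is the GTPase SrpRalpha, and the chain passes through the Sec61 channel, beside which TRAM sits as a helper of translocation (a role known from mammals). Cargo leaves the ER in vesicles coated by COPII, in which Sec23 forms the inner layer and activates the GTPase of Sar1, and p24 proteins such as CHOp24 cycle between ER and Golgi as cargo receptors. In late fly embryos this machinery is used heavily by salivary glands and by the epidermis, which secretes cuticle, and Sec23 is known to be needed for cuticle formation.

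Signals were read as MAS 5.0 intensities on a linear scale, which rank arrays within a probe set but do not compare abundance between genes. Over the 8631 probe sets bright enough to be tested, limma called 345 lower and 174 higher (2.02%) in svb than in wt, 1990 and 1576 (18.3%) in pri against wt, and 2128 and 1855 (21.5%) in pri against svb, at an adjusted p under 0.05. The study describes its samples as independent, and p-values measure the spread between them. With arrays centred on their median these splits were 201 and 174, 2328 and 1047, and 3053 and 1149. On the first principal component svb replicate 4 lay at -86.9, whereas its 4 fellow svb arrays lay between -45.5 and -8.52. The genes svb and pri themselves were not analysed by name here, so that the mutant labels had no check at the targeted genes. Of the markers listed for other cell types, 1 of 9 for salivary gland, 2 of 5 for epidermis and 0 of 5 for midgut had a named probe set.

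In pri mutants the mRNA of all 4 secretory genes fell to between 27.0% and 41.8% of the wt signal. The falls were 3.69-fold for CHOp24, 2.73-fold for TRAM, 2.56-fold for SrpRalpha and 2.39-fold for Sec23, and every pri array lay below every wt array for each of the 4. In svb mutants none of the 4 passed the test. There SrpRalpha, TRAM and Sec23 were at 92.1% to 94.5% of wt, whereas CHOp24 had a signal of 59.0% of wt. By in situ hybridization the study found Sec23 mRNA lowered in trichome cells of svb mutants, and it marks the other members as not determined. Signals of whole embryos do not measure trichome cells alone, so that the array values do not speak against that result. In whole embryos fewer cells of a type and less RNA per cell cannot be told apart either.

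**Figure D1:**
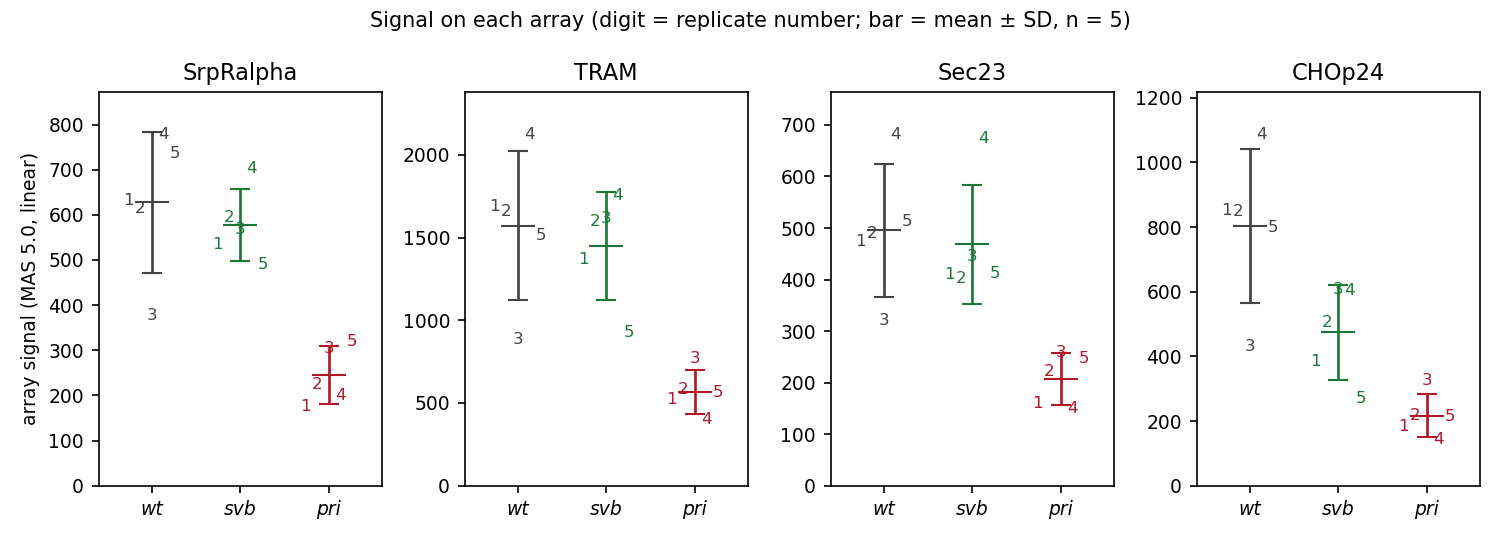
Signal of the 4 genes on each of the 15 arrays (vertical axis, linear MAS 5.0 signal; horizontal axis, genotype), each array drawn as its replicate number, with mean ± SD (n = 5). For SrpRalpha, TRAM and Sec23 all 5 svb arrays lie inside the range of wt, and the pri arrays lie below every other array; wt replicate 3 is the lowest wt array for all 4 genes.

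SrpRalpha, at the entry to the pathway, had signals of 631, 614, 377, 779 and 736 on wt arrays 1 to 5. In svb mutants they were 535, 595, 567, 703 and 490, and in pri mutants 176, 223, 305, 199 and 320. All svb arrays fell inside the wt range, and the highest pri array was below the lowest wt array, that of wt replicate 3. The group signals were 627 ± 156 in wt, 578 ± 80.3 in svb and 245 ± 64.3 in pri (SD, n = 5). The log2 fold change of pri against wt was -1.35 ± 0.21 (SE; limma adjusted p = 0.00011), and that of svb against wt was -0.09, with a 95% interval of -0.52 to 0.35 (limma adjusted p = 0.893).

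TRAM, which assists the translocation channel, gave 1685, 1659, 884, 2125 and 1510 in wt. The svb arrays gave 1366, 1600, 1617, 1752 and 923. The pri arrays gave 518, 579, 767, 399 and 565. Again the svb arrays all lay within the range of wt, with the lowest svb value on replicate 5, and no pri array reached a wt or svb array. The mean signal went from 1573 ± 448 in wt to 1452 ± 326 in svb and 566 ± 133 in pri (SD, n = 5). On the log2 scale the difference from wt was -1.45 ± 0.23 in pri (SE; limma adjusted p = 0.000156) and -0.09 in svb (95% interval -0.58 to 0.39; limma adjusted p = 0.895).

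Sec23, the COPII coat subunit, was read at 474, 490, 320, 682 and 512 in wt. Its svb arrays were at 409, 403, 445, 674 and 412, where replicate 4 was far above the other svb arrays, which were within 403 to 445. Its pri arrays were at 159, 221, 259, 149 and 246, below all others. The means were 496 ± 129 in wt, 468 ± 116 in svb and 207 ± 50.2 in pri (SD, n = 5). Sec23 differed from wt by -1.25 ± 0.21 in pri (log2, SE; limma adjusted p = 0.000316). In svb the log2 difference was -0.07 (95% interval -0.52 to 0.38; limma adjusted p = 0.918), and without svb replicate 4 it was -0.21 (limma adjusted p = 0.618), the mean then being 84.2% of wt.

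CHOp24, the p24 cargo receptor, was the member whose svb signals lay lowest against wt. Its signals were 852, 847, 430, 1087 and 799 in wt, then 383, 504, 608, 603 and 271 in svb, and 182, 218, 324, 143 and 215 in pri. Of the wt arrays, 4 were above every svb array, and only wt replicate 3 was lower than some of them. The pri arrays were all below wt, but pri replicate 3 was above svb replicate 5. The group signals were 803 ± 237 in wt, 474 ± 146 in svb and 217 ± 67.4 in pri (SD, n = 5).

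The fall of CHOp24 in pri was -1.88 ± 0.27 on the log2 scale (SE; limma adjusted p = 7.36e-05). In svb its log2 difference was -0.76 ± 0.27 (SE), with a 95% interval of -1.34 to -0.18 before adjustment over all probe sets, and it did not pass (limma adjusted p = 0.126). Without wt replicate 3 the value was -0.97 and passed (limma adjusted p = 0.0359). Array weights, which gave wt replicate 3 a weight of 0.434 and svb replicate 4 a weight of 0.214, had the same outcome (-0.94, limma adjusted p = 0.00924). Over 24 alternative settings the adjusted p ranged from 0.00924 to 0.283, and the log2 difference from -0.97 to -0.58.

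Set against the whole array, 0 of the 4 genes were called lower in svb, where 4.00% of tested probe sets were, and none had all svb arrays below all wt arrays, as 4.06% of probe sets did. Of the 4, only CHOp24 had an unadjusted p under 0.05 in limma, the one tool run, as did 1573 of the 8631 tested probe sets. In pri against wt, 4 of 4 were called lower and the background was 23.1%. Of all tested probe sets, 14.2% had 5 pri arrays all below the 5 wt arrays, as the 4 genes did. The median log2 fold change of the 4 genes was -1.40 in pri, beside -0.04 over all tested probe sets. From 1.59% (CHOp24) to 4.16% (Sec23) of tested probe sets had a larger fall. The table was selected for such a fall, so that these shares describe the choice of the genes and nothing is read from them.

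**Figure D2:**
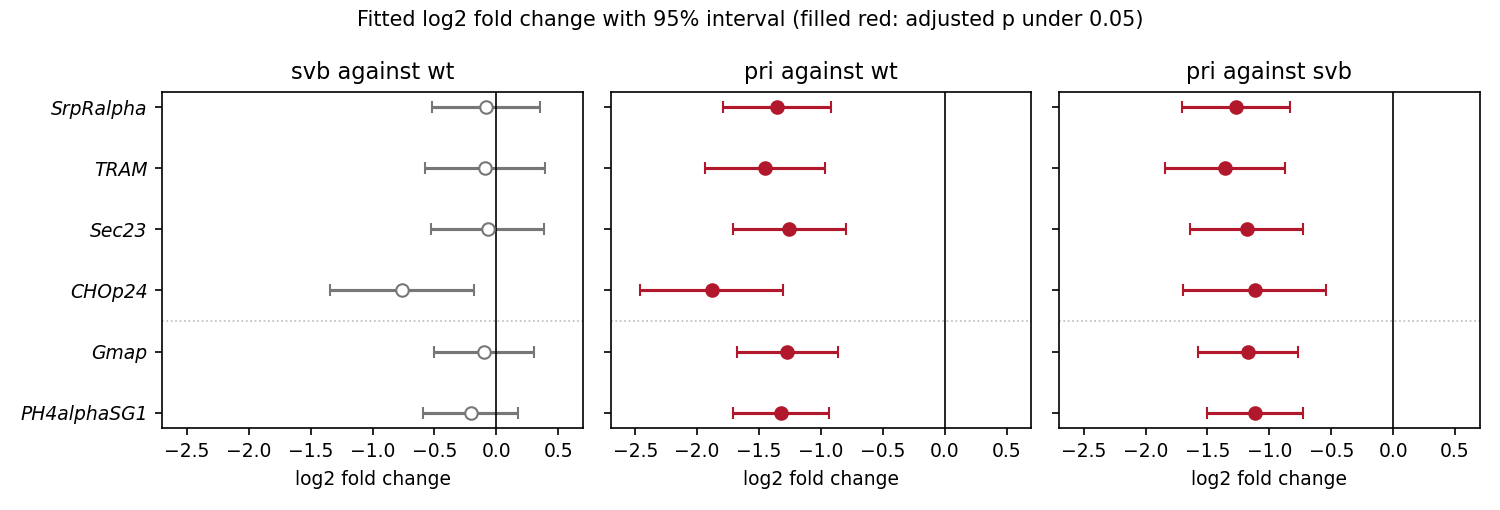
Fitted log2 fold change (horizontal axis) with its 95% interval for the 4 genes and, under the dotted line, the Golgi gene Gmap and the salivary gland gene PH4alphaSG1, in each of the 3 comparisons. Filled red points passed at an adjusted p under 0.05. The 4 genes lie between -1.88 and -1.25 in pri against wt, and in svb against wt CHOp24 at -0.76 is apart from the other members at -0.09 to -0.07.

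The direct comparison of the mutants gave lower signals in pri for all 4 genes. TRAM was 2.56-fold lower than in svb (limma adjusted p = 0.000197), SrpRalpha 2.41-fold (0.000138), Sec23 2.27-fold (0.000348) and CHOp24 2.17-fold (0.00343). The order thus changed: CHOp24 had the largest fall of the 4 against wt and the smallest against svb, though the intervals of all 4 overlap and the differences between genes were not tested. The background here was 24.7% of probe sets called lower. For SrpRalpha, TRAM and Sec23 no pri array overlapped with svb, which held for 13.8% of probe sets, and for CHOp24 4 of 5 pri arrays were below all svb arrays. The comparisons share arrays, and a further fall of more than 2-fold in pri was a criterion of the study's table.

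The signals of the 4 genes went up and down together among arrays of the same genotype. On wt replicate 3 all 4 were below the wt mean, by 0.59 to 0.84 on the log2 scale, and on wt replicate 4 all were above it by 0.35 to 0.50. All 4 were likewise high on wt replicate 2, svb replicate 4 and pri replicates 3 and 5, and low on svb replicates 1 and 5 and pri replicates 1 and 4. CHOp24 and TRAM followed each other most closely. After subtraction of the genotype means, their log2 signals had a Pearson r of 0.98 and a Spearman rho of 0.99 over the 15 arrays. Only 6 tested probe sets followed CHOp24, and only 1 followed TRAM, as closely or more. The other 5 pairs had an r of 0.80 to 0.89, the highest being Sec23 with SrpRalpha. For these pairs 0.857% to 6.13% of tested probe sets followed 1 gene of the pair as closely or more. Without the 2 arrays farthest from the median of the first gene, wt replicate 3 and an svb array in each case, r was 0.96 for CHOp24 and TRAM and 0.67 to 0.86 for the others. These values are descriptions, since probe sets on an array share its RNA extract and its scaling.

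**Figure D3:**
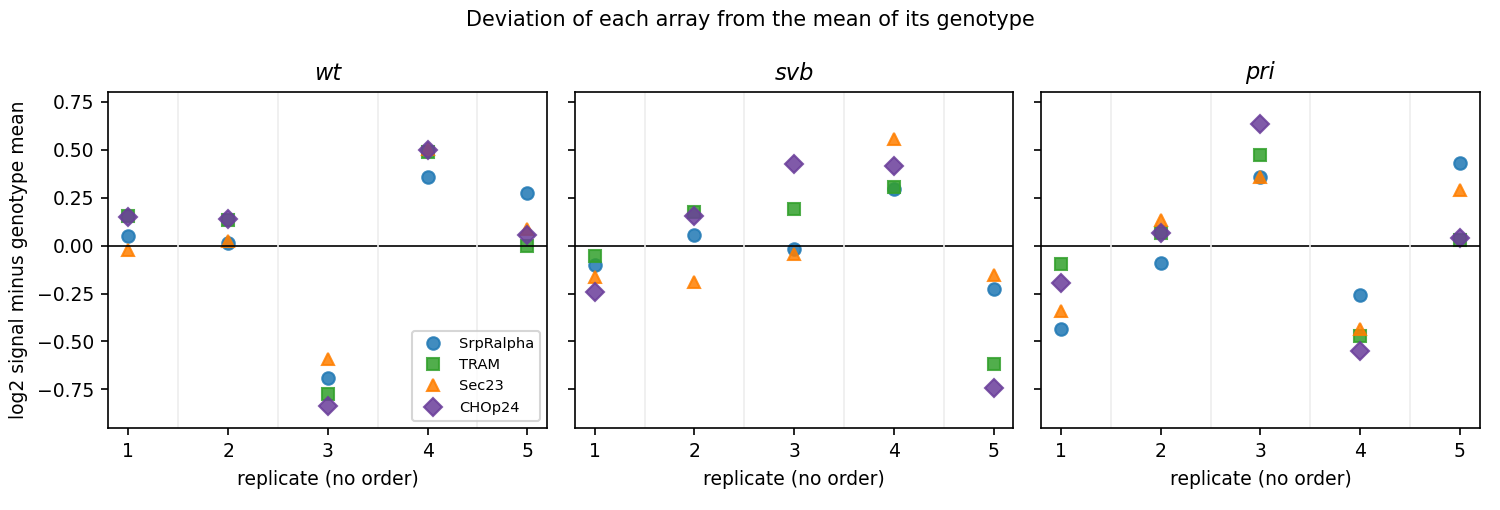
Log2 signal minus the mean of the genotype (vertical axis) for the 4 genes on each array (horizontal axis, replicate number, which has no order), 1 panel for each genotype. On 10 of the 15 arrays all 4 genes lie on the same side of the genotype mean, and wt replicate 3 is the lowest array at -0.84 for CHOp24; on svb replicate 5 CHOp24 and TRAM lie at -0.74 and -0.62, while Sec23 and SrpRalpha lie at -0.15 and -0.23.

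The ratio of CHOp24 to TRAM within an array varied less among arrays of a genotype than either signal. Scaled to a wt mean of 1, it was 0.957 to 1.04 on the 5 wt arrays (SD 0.0300). On the svb arrays it was 0.551, 0.619, 0.739, 0.677 and 0.576, and on the pri arrays 0.692, 0.741, 0.831, 0.704 and 0.747. All mutant arrays were thus below all wt arrays, and the svb and pri ratios overlapped (0.632 ± 0.0763 and 0.743 ± 0.0544, SD, n = 5). The ratio of CHOp24 to SrpRalpha showed the same with 0.637 ± 0.151 in svb and 0.703 ± 0.146 in pri, its highest svb array (0.844) just under its lowest wt array (0.854). The ratio of CHOp24 to Sec23 was 0.636 ± 0.179 and 0.649 ± 0.0952, and there svb replicate 3 (0.852) was above wt replicate 3 (0.838). By contrast, the ratio of TRAM to SrpRalpha was 0.998 ± 0.147 in svb and 0.946 ± 0.190 in pri (SD, n = 5), with all 3 genotypes overlapping. The choice of CHOp24 for these ratios was made after its values were seen, so that they carry no test. A ratio shows unequal change of both signals, not that either stayed the same.

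**Figure D4:**
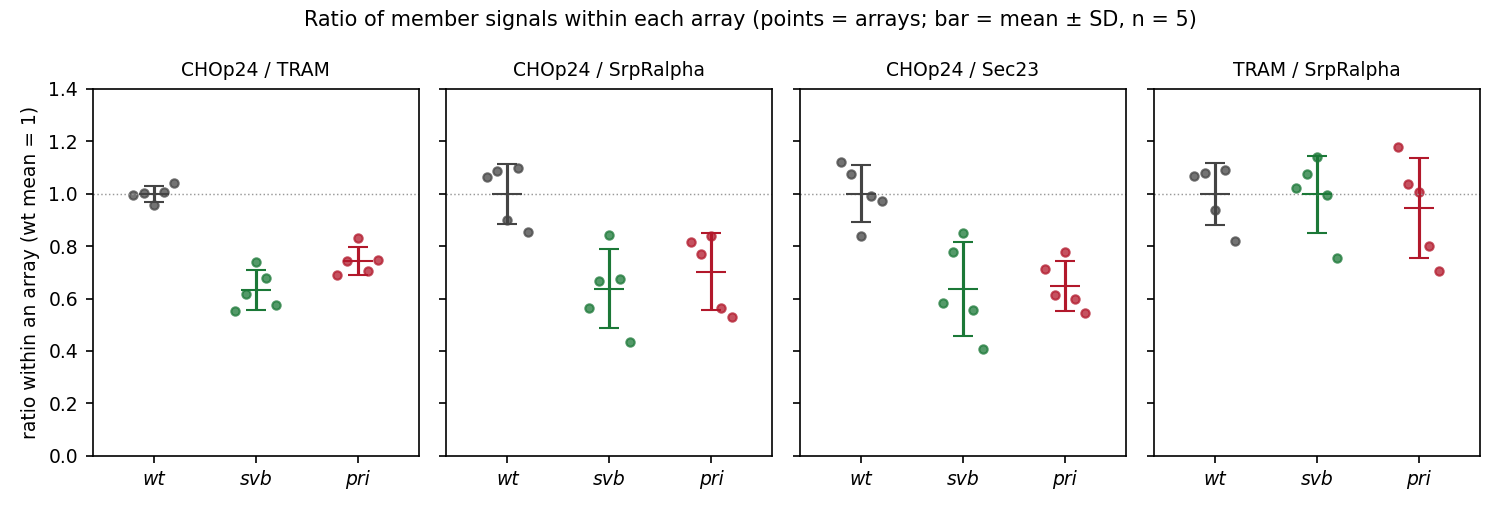
Ratio of signals of 2 genes within each array (vertical axis, scaled to a wt mean of 1) by genotype, points for arrays and bars for mean ± SD (n = 5). The ratio of CHOp24 to TRAM is tight in wt and lower on all 10 mutant arrays, at 0.551 to 0.831, whereas the ratio of TRAM to SrpRalpha overlaps among the 3 genotypes.

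Other genes of the pathway could be followed only where they are in the selected table. Of 55 genes on 7 lists that run from the signal recognition particle to the early Golgi, 5 were named: the 4 members and Gmap, a golgin of the Golgi. No gene of the ER folding list or of the list for the COPI coat and retrieval had a name. Gmap gave 458, 689, 504, 662 and 526 in wt, 480, 446, 428, 753 and 569 in svb, and 181, 274, 277, 178 and 277 in pri. Its pri arrays were all below the others, 2.41-fold lower than wt (limma adjusted p = 0.000102), and its svb mean was 94.3% of wt (limma adjusted p = 0.867). In percent of wt these levels lie beside those of Sec23, at 94.5% in svb and 41.8% in pri. Its array deviations had an r of 0.78 with Sec23, 0.56 with SrpRalpha and 0.40 with both CHOp24 and TRAM.

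Salivary glands could be followed through a single gene. PH4alphaSG1, a prolyl hydroxylase of salivary glands and the only listed marker of that organ with a name here, went from 207 ± 36.1 in wt to 182 ± 49.9 in svb and 82.0 ± 10.4 in pri (SD, n = 5). It was 2.50-fold lower in pri than in wt (limma adjusted p = 4.46e-05), a fold near those of the members. Its array deviations did not go with theirs, the r being 0.14 with Sec23 and -0.27 to -0.21 with the other members. Of the epidermal markers Tb and vri, vri was at 85.6% of wt in svb and 30.5% in pri, and Tb at 88.6% and 21.5%. Tb varied widely among wt arrays (57.2 to 275). By the study's in situ hybridization it is itself lowered in trichome cells of svb mutants, so that it does not measure the amount of epidermis alone. The study reports no such change for vri but lists it in the hindgut too, so that vri does not measure epidermis alone either. The salivary gland and epidermal genes were also selected for a fall in pri. The part of either tissue in the falls of the 4 genes was not tested.

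CHOp24 and TRAM were each among the 3 named genes whose array deviations were most like those of the other, and the remaining nearest genes are not on the lists of the pathway. For Sec23 they were CCT1, a subunit of the cytosolic chaperonin (r = 0.95 over 15 arrays), the nucleolar methyltransferase Fib (0.94) and CG6415 (0.93). For CHOp24 they were CG30423 (0.98), TRAM (0.98) and the mitochondrial ribosomal protein mRpL47 (0.98), and for TRAM they were CHOp24, the mitochondrial dehydrogenase scu (0.97) and mRpL47 (0.96). For SrpRalpha they were Cbs, a cystathionine beta-synthase (0.93), SCOT, an enzyme of ketone body use (0.92), and CG6415 (0.92). Among the 133 other named genes, Sec23 ranked 7th and 35th for SrpRalpha and CHOp24. Of all tested probe sets, 62 (SrpRalpha) to 218 (CHOp24) had an r over 0.9 with a member, and the central 90% of r with CHOp24 ran from -0.73 to 0.83.

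Other gene groups of the selected table give a scale for these values. The 4 mitochondrial ribosomal protein genes had a median log2 fold change of -1.34 in pri and -0.06 in svb, beside -1.40 and -0.09 for the members, and a median r with them of 0.71 (Sec23) to 0.91 (CHOp24). The chaperonin genes CCT1 and CCT4, which are 2 of 8 on their list, fell by 1.29 and 1.70 on the log2 scale in pri and had an r of 0.87 to 0.95 with the members. The 16 known Svb targets had medians of -2.68 in pri and -0.79 in svb, and 8 of the 16 passed in svb. Their median r with the members was negative, at -0.51 (TRAM) to -0.29 (SrpRalpha). In svb the log2 fold changes of the Svb targets ran from -2.03 to -0.09, and those of the mitochondrial ribosomal genes from -0.07 to -0.02. CHOp24 at -0.76 was near the median of the Svb targets. Its median r with them was -0.50, with -0.53 for sha and 0.06 for m. Genotype means are taken out of r, so that it does not measure a response to the loss of svb. The other members, at -0.09 to -0.07, were near the median of the mitochondrial ribosomal genes. SrpRalpha and TRAM, at -0.09, were also level with the smallest fall among the Svb targets. The 16 leave out genes that the study picked from the arrays and found lowered in svb mutants by in situ hybridization, Sec23 among them. The values above do not place any member in either group. All these genes were selected on the same arrays, and no test compared the groups.

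Some properties of whole arrays moved with genotype and with the members. The brightest 1% of probe sets took 24.2% ± 0.936 of all signal in wt, 24.02% ± 3.28 in svb and 20.2% ± 1.18 in pri (SD, n = 5). The share was lower in pri than in wt by a two-sided exact permutation test (p = 0.00794, which is as small as this number of arrays allows, and 0.0476 when adjusted over the 18 tests of array measures). Among arrays of a genotype this share had an r of 0.80 with CHOp24, 0.70 with TRAM, 0.48 with Sec23 and 0.41 with SrpRalpha. With quantile normalisation, which gives all arrays the same distribution, the log2 fold changes in pri were -1.86 for CHOp24, -1.42 for TRAM, -1.34 for SrpRalpha and -1.24 for Sec23, and all 4 passed. RNA quality was read as the log2 ratio of 3′ to 5′ control probe sets of eIF-4a, GAPDH and actin. For eIF-4a it was 2.97 ± 0.320 in wt, 2.58 ± 0.111 in svb and 2.55 ± 0.172 in pri (SD). Against wt the two-sided exact permutation p was 0.0317 for svb and 0.0556 for pri, or 0.0952 and 0.111 after adjustment. For GAPDH the ratio was 1.62 ± 0.239, 1.32 ± 0.0530 and 1.47 ± 0.107. The same test gave an adjusted p of 0.0952 for svb and 0.341 for pri. For actin it was 2.13 ± 0.404, 1.73 ± 0.196 and 1.68 ± 0.0934, with an adjusted p of 0.131 and 0.111. No pair passed after adjustment in any of the comparisons. Among arrays of a genotype the r with the members was -0.36 to -0.23 for eIF-4a. It was -0.41 to -0.26 for GAPDH and -0.04 to 0.19 for actin. The part of RNA quality in the results was not tested.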

How the data were processed

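RNA of 5 samples each of wt, svb -/- and pri -/- embryos was measured on 15 Affymetrix Drosophila arrays. The authors computed intensity values on a linear scale with MAS 5.0 in Affymetrix Expression Console 1.1 and scaled each array to a trimmed mean of 100 before they deposited them. Groups and replicate numbers came from the sample titles. The 149 rows of the authors' selected table were joined to the 18952 probe sets by their values on all 15 arrays (relative tolerance 1e-05), and 145 matched 1 probe set. Rows with several symbols (9), a symbol that disagreed with its public identifier (1) or a repeated probe set (1) were left out, so that 134 genes had a name. Current symbols came from RefSeq (Release 6 plus ISO1 MT). The probe sets of Sec23 and TRAM carry the suffix that marks probes shared by several transcripts. No chip or scan batch was given in the sources used here.

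Signals were taken to log2 without an offset. Probe sets entered if the highest group mean was at least 5 on that scale, and 183 control probe sets were left out. All 15 arrays entered 1 linear model with a mean for each genotype (limma 3.58.1, R 4.3.3, eBayes with a trend). P-values were adjusted by Benjamini and Hochberg over 8631 probe sets with a threshold of 0.05, and the fit was tested on simulated data. Percentages of wt are ratios of mean signals. Correlations used log2 signals after subtraction of genotype means. Exact permutation tests of array measures used scipy 1.17.1. Named in the text are the 4 members, other listed genes of the pathway and of other tissues with a name, and for each member the 3 named genes with the highest r. The members, gene lists and tests were chosen with earlier results of these data known. As alternatives, values were quantile-normalised, centred on the array median or given an offset of 16, and the fit was repeated with no filter, a filter at 6.5, eBayes without a trend, array weights, a replicate block, only 2 genotypes, or without each array in turn.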

Additional observations from a re-analysis of the deposited data

Results flagged for a closer look

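Of 30 groups of 5 arrays examined (4 genes and 6 array measures in 3 genotypes), 1 held an array far from the others. The Sec23 signal of 674 on svb replicate 4 was separated from the next svb array by a gap of 0.846 of the whole range, above the critical value of 0.71 for 5 arrays. Chance flags about 1 in 20 such groups. SrpRalpha, TRAM and CHOp24 were also above their svb means on this array, by 0.29 to 0.41 on the log2 scale, against 0.55 for Sec23.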

How the results depend on the processing

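In pri against wt and in pri against svb, all 4 genes stayed lower and past the threshold in each of the 24 alternative settings. The counts of members called in svb were 0 to 1 when each array was left out in turn, CHOp24 without wt replicate 3 being the exception, and 1 with array weights. The values of the other members in svb were small enough to change sign. With median centring their log2 differences were 0.0348 for Sec23, 0.0103 for TRAM and 0.0186 for SrpRalpha. When 1 array was left out they ranged from -0.218 to 0.0555 for Sec23, from -0.288 to 0.0601 for TRAM and from -0.259 to 0.00245 for SrpRalpha, the lowest without wt replicate 3. They were above 0 without wt replicate 4 and, for TRAM, also without svb replicate 5. Median centring moved the median of all tested probe sets to 0.10 in svb, -0.24 in pri and -0.34 in pri against svb. Relative to that median the log2 values in pri were -1.83 for CHOp24, -1.402 for TRAM, -1.31 for SrpRalpha and -1.21 for Sec23.

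Over all probe sets, calls lower in svb were 201 with median centring, 218 with the filter at 6.5, 569 with array weights and 221 in the fit of 2 genotypes. Calls higher in svb were 103 with the filter at 6.5, 348 with array weights and 109 in the fit of 2 genotypes. With median centring 1047 were higher in pri than in wt and 1149 higher in pri than in svb. Median centring shifts each array by its own median. Over all probe sets the median signal was 13.6 ± 0.931 in wt, 12.8 ± 2.26 in svb and 15.6 ± 0.853 in pri (SD, n = 5). Why these medians differ was not tested. The cause of the other shifts was not tested either, apart from fewer probe sets or arrays where the setting itself leaves them out. Same-numbered arrays did not deviate together throughout (r between -0.61 and 0.37, with both signs). The labels do not say whether the numbers pair the samples, and these correlations cannot settle it. The replicate block called 0, 4 and 4 of the members in the 3 comparisons, and 273 and 138 probe sets in svb. Leaving out 1 array kept the correlation of CHOp24 with TRAM between 0.97 and 0.99. The number of arrays limits the precision.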
